A study of Mus musculus with 18 samples.

Results

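Semaphorins, plexins and neuropilins were followed through the folic acid injury of the mouse kidney. The genes were chosen by symbol (Sema followed by a digit, any Plxn, Nrp1 or Nrp2), and 34 of the 37991 gene identifiers in the count tables met that rule. They are 31 protein-coding genes and 3 antisense transcripts of the Plxna4 locus. The family was selected on the rise of Sema3d between day 3 and day 7, so that rise and every other comparison of Sema3d with day 3 or day 7 is given below as a description, with no test. For the same reason no member is tested between day 3 and day 7. Of the 34, 30 had enough reads for the main tests, and Plxnb3 (25 reads over all libraries), Sema4f (73), Plxna4os1 (85) and Plxna4os3 (9) did not.

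All libraries came from kidney of male Balb/c mice of 25 to 29 g, in 6 groups of 3. One group was untreated, and the 5 others received a single intraperitoneal injection of folic acid at 250 mg/kg in 0.3 M sodium bicarbonate and were killed 1, 2, 3, 7 or 14 days later. The labels give no mice that received the bicarbonate by itself, so effects of folic acid and of its vehicle cannot be told apart. Nor do they say whether the libraries of a group are from separate animals, so the p-values measure only the spread between these samples, which may be technical. In bulk tissue, fewer cells of a type and less RNA per cell cannot be told apart.

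Semaphorins are secreted or membrane-bound guidance proteins that share the sema domain. They act through plexins, transmembrane receptors whose intracellular domain acts on small GTPases and so on the cytoskeleton and on integrin adhesion. Most secreted class 3 semaphorins need a neuropilin as the binding partner of the plexin, and neuropilins also bind vascular endothelial growth factors. In kidney the family is known for podocyte and vessel integrity and for branching of the ureteric bud.

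The 250 bases before the start of 3 members are shown because these genes have the clearest separate courses below: Sema3d falls and then rises, Sema5a rises and Sema4g falls. The sequences are from RefSeq on build GRCm38.p6, a C57BL/6J reference, on the plus strand, with each CpG dinucleotide in capitals.
Sema3d (chr5:12382916-12383165): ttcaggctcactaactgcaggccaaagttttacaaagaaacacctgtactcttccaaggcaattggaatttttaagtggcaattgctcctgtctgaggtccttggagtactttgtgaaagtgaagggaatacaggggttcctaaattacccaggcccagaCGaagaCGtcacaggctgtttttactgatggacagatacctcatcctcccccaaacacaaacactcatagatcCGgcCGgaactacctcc
Sema5a (chr15:32244563-32244812): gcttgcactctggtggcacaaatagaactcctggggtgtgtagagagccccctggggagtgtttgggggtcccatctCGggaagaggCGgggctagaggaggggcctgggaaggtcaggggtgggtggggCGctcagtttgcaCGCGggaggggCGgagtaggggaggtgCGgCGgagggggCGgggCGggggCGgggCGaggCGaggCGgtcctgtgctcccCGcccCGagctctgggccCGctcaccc
Sema4g (chr19:44989094-44989343): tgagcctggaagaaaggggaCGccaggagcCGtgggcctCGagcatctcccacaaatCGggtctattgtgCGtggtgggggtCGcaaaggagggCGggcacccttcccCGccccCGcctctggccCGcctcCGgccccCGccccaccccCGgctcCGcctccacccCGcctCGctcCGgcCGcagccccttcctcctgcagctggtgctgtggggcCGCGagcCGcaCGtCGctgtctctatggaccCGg
The stretch of Sema3d held 46.8% G or C and 4 CpG. That of Sema5a held 72.0% and 17 CpG, and that of Sema4g held 73.2% and 24 CpG. Over the same window of 32851 RefSeq promoters the medians were 52.4% and 6 CpG. The Sp1 word GGGCGG, read on both strands and overlapping a CpG by its own letters, occurred 5 times before Sema5a, 3 times before Sema4g and not before Sema3d. It was present in 32.7% of all promoters and in 27 of the 37 promoters found for 26 members.

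Reads assigned to genes ranged from 8677197 to 54613262 per library, of which 59.0 to 75.6% lay in the mitochondrial genome, and the family held 3651 to 27030 reads per library. The lowest of these was day 2 replicate 2, which also had the fewest reads in all. The mitochondrial share differed between groups. It was 69.2 to 75.6% in untreated libraries, 68.5 to 69.8% at day 1 and 63.5 to 67.4% at day 2. At day 3 it was 59.0 to 65.6%, at day 7 63.5 to 66.3% and at day 14 67.9 to 73.4%. In the untreated libraries, labelled kidney, the 15 proximal tubule markers listed summed to 10447 to 11367 CPM. CPM, the reads of a gene scaled to a common library size with TMM scaling, is the unit of all levels below. Differences are log2 fold changes from edgeR's quasi-likelihood fit with their standard error (SE), and a gene was called at a Benjamini-Hochberg adjusted p under 0.05 over all 16824 genes tested.

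In untreated kidney the family was led by a secreted ligand, a membrane ligand and 2 receptors. Per kilobase of exon, the mean level (± SD, n = 3) was 9.20 ± 4.51 CPM for Sema3c, a ligand with a role in ureteric bud branching. It was 8.09 ± 3.34 CPM per kilobase for Sema4a, a membrane semaphorin best known from immune cells, and 6.59 ± 1.34 for Plxnb2, a receptor of class 4 semaphorins. Nrp1, the neuropilin shared by class 3 semaphorins and vascular endothelial growth factor, stood at 5.13 ± 1.11 on the same scale. Sema4g followed at 4.24 ± 2.15 and Sema5a at 3.45 ± 0.304. Sema3d took place 25 of 34 at 0.208 ± 0.116 CPM per kilobase, and Plxnb3 was lowest at 0.00643. Each gene's 3 libraries overlapped those of the next gene in this order, so no neighbouring pair differed beyond its spread.

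**Figure D1:**
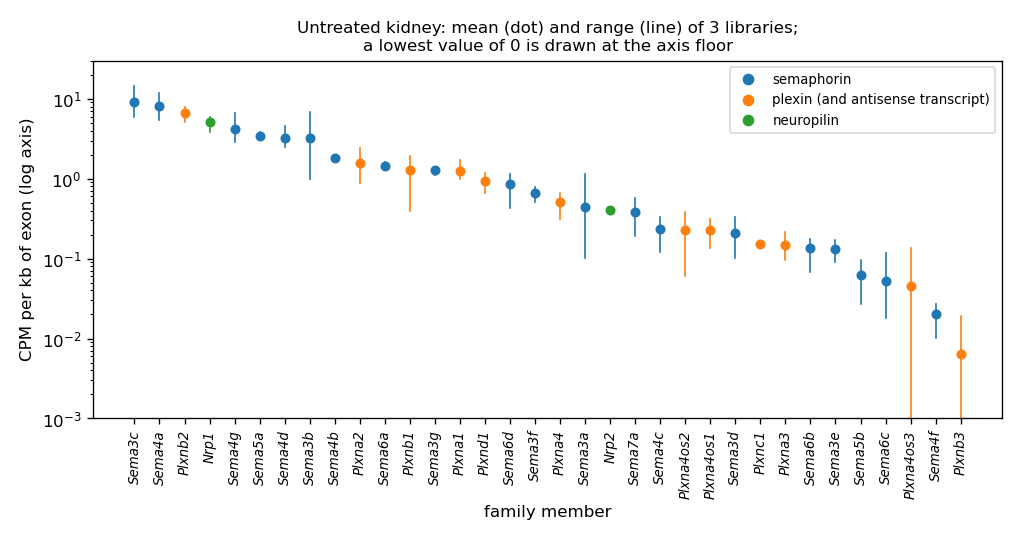
Level of the 34 family members in untreated kidney, in CPM per kilobase of exon on a log axis, with the mean as a dot, the range of the 3 libraries as a line that is cut at the axis floor where a library is at 0, and the colour for semaphorin, plexin or neuropilin. Sema3c, Sema4a, Plxnb2 and Nrp1 lead, Sema3d stands at place 25, and neighbouring genes overlap.

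Compared with untreated kidney, more members passed the test in the first 2 days than later. At day 1, 1 of 30 members was higher (Sema5a) and 4 were lower (Sema4g, Sema3a, Sema3d and Plxna4), where 5.09% of all genes were called higher and 5.56% lower. At day 2, 3 of 30 were higher (Sema5a, Sema6a, Plxnb2) and 4 were lower (Sema3a, Sema3d, Sema4g, Plxna4), against 7.19% and 5.98% of all genes. At day 3, 2 of the 29 members other than Sema3d were higher (Sema5a and Sema6a) and none was lower in the main edgeR fit, against 4.18% and 3.43%. At day 7, 1 of 29 was higher (Sema5a) and 1 lower (Sema4g), against 3.87% and 3.85%. At day 14, 1 of 30 was higher (Sema3d) and none was lower by edgeR, against 1.24% and 0.309%. DESeq2 called 1 member lower at day 3 (Plxna4) and 1 at day 14 (Sema4g). At an unadjusted p under 0.05, 9, 9, 7, 9 and 6 members passed at days 1, 2, 3, 7 and 14, beside 23.9, 26.9, 22.3, 21.8 and 15.6% of all genes. The median log2 fold change over the members tested was -0.06, -0.17, 0.25, 0.16 and 0.18, beside 0.05, 0.03, 0.07, 0.06 and 0.04 over all genes. The counts are small, and nothing particular to the family is read from them. The 5 comparisons use the same 3 untreated libraries.

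**Figure D2:**
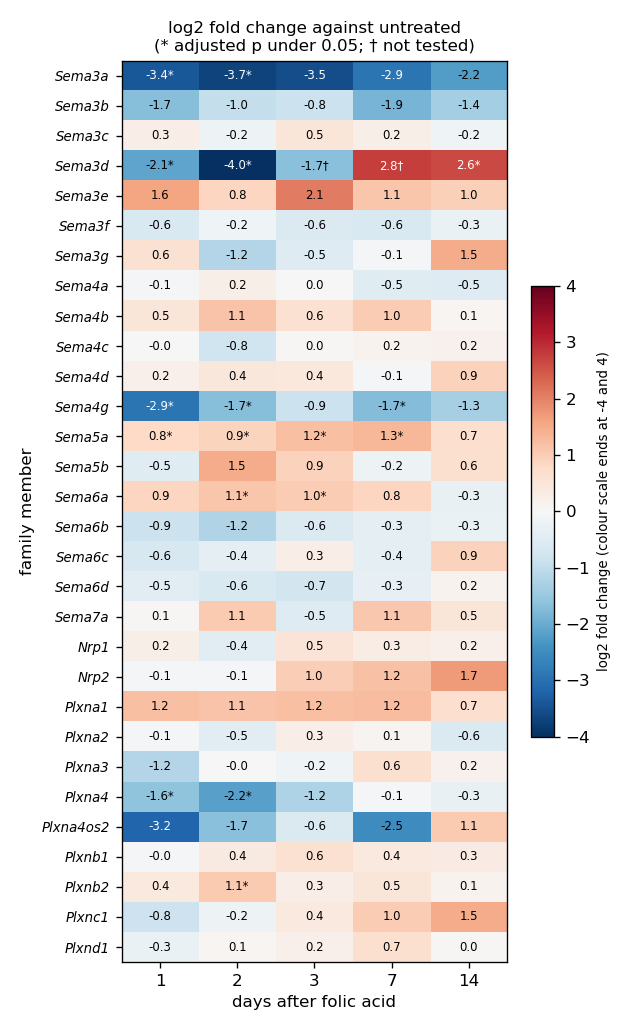
Log2 fold change against untreated kidney of the 30 members tested (rows) at each of the 5 days (columns), as colour, with a star for an adjusted p under 0.05 and a dagger for the values of Sema3d that were not tested. Sema5a is called higher at days 1, 2, 3 and 7, Sema4g is called lower at days 1, 2 and 7, and Sema3d is called lower at days 1 and 2 and higher at day 14.

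Sema3d, a secreted class 3 semaphorin known for guiding axons and for patterning developing veins, fell to near 0 by day 2 and stood above the untreated level at day 14. Its level was 0.870, 2.85 and 1.63 CPM in the untreated libraries, and 0.481, 0.562 and 0.219 at day 1. It was 0.0408, 0 and 0.231 CPM at day 2, from 2, 0 and 6 reads. Every library of days 1 and 2 lay below every untreated library. The level was 0.431, 0.909 and 0.367 CPM at day 3, 10.6, 9.37 and 17.2 at day 7, and 18.6, 8.47 and 6.97 at day 14. Day 3 overlapped the untreated range through its second library, whereas all libraries of days 7 and 14 lay above every other library in the series.

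The log2 fold change of Sema3d was -2.11 at day 1 (SE 0.63, 4.31-fold lower, adjusted p = 0.0375) and -4.04 at day 2 (SE 0.77, 16.5-fold lower, adjusted p = 0.0019). At day 14 it was 2.65 (SE 0.61, 6.26-fold higher, adjusted p = 0.0343). The day 2 value lay between -5.53 and -3.40 with each library left out and passed in every such fit, although it rests on 8 reads at day 2. The day 1 call was lost without untreated replicate 2 (-1.57, adjusted p = 0.19), untreated replicate 3 (-2.18, 0.0652), day 1 replicate 1 (-2.22, 0.0851), day 1 replicate 2 (-2.41, 0.0673) or day 1 replicate 3 (-1.77, 0.145). The day 14 call was lost without untreated replicate 1 (2.32, adjusted p = 0.144), untreated replicate 2 (3.18, 0.0565), untreated replicate 3 (2.57, 0.112) or day 14 replicate 1 (2.09, 0.123).

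As a description of what chose the family, the mean of Sema3d was 0.569 ± 0.296 CPM at day 3 and 12.4 ± 4.22 at day 7, a log2 fold change of 4.45 (SE 0.67, 21.8-fold). Ordered from the highest, this fold change took place 60 of 16824 between those days. Against untreated kidney (1.78 ± 1.00 CPM) it stood at 2.77 at day 7 (SE 0.61, 6.84-fold). Between days 7 and 14 the log2 difference was -0.13 (SE 0.57), and the libraries of the 2 days overlapped.

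Marker genes of other cells moved over the same days, and their part in the course of Sema3d was not tested. The summed level of 15 fibroblast and myofibroblast markers was 53.2 to 81.6 CPM in untreated kidney, 222 to 473 at day 3, 273 to 500.3 at day 7 and 299.8 to 631 at day 14. Of these markers 5 were called higher at day 3, 8 at day 7 and 6 at day 14, and none lower on those days. At day 1 their sum was 109 to 167 CPM, with 4 markers called higher and 1 lower. At day 2 it was 109 to 234 CPM, with 5 called higher and 2 lower. The summed level of the macrophage and monocyte markers was 27.8 to 54.4 CPM in untreated kidney, 150 to 211 at day 3, 249 to 425 at day 7 and 192 to 409 at day 14. Of the 14 tested, 7, 12 and 8 were called higher on those days and none lower. The macrophage sum was 64.7 to 105 CPM at day 1 and 57.8 to 81.5 at day 2. On each of these days 3 macrophage markers were called higher and 1 lower. Both sums were above their untreated range on all 5 days. The sum of 15 endothelial markers was 122 to 212 CPM in untreated kidney, 34.2 to 85.2 at day 2, and 115 to 154 at day 14. No marker of these lists was without a read over all libraries. Tubule markers were lower through most of the course: of 15 proximal tubule markers 13, 12, 11, 13 and 2 were called lower over the 5 days, and of 11 markers of the loop of Henle and distal tubule 8, 7, 8, 2 and 1. Of 11 collecting duct markers 4, 4, 2, 0 and 0 were called lower by edgeR, and of 10 podocyte markers 2, 4, 2, 3 and 0. The T and natural killer cell, Schwann cell and lymphatic lists had 7, 4 and 5 markers tested and at most 2 called on any day. The Schwann cell and nerve sum was 6.02 to 9.77 CPM in untreated kidney and overlapped that range at days 1 and 3. It was 14.0 to 24.7 CPM at day 2, 17.9 to 34.3 at day 7 and 16.7 to 27.5 at day 14. Of its 4 markers tested, 1 was called higher and 1 lower at day 2. At day 7, 2 were called higher, and at day 14, 1.

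**Figure D3:**
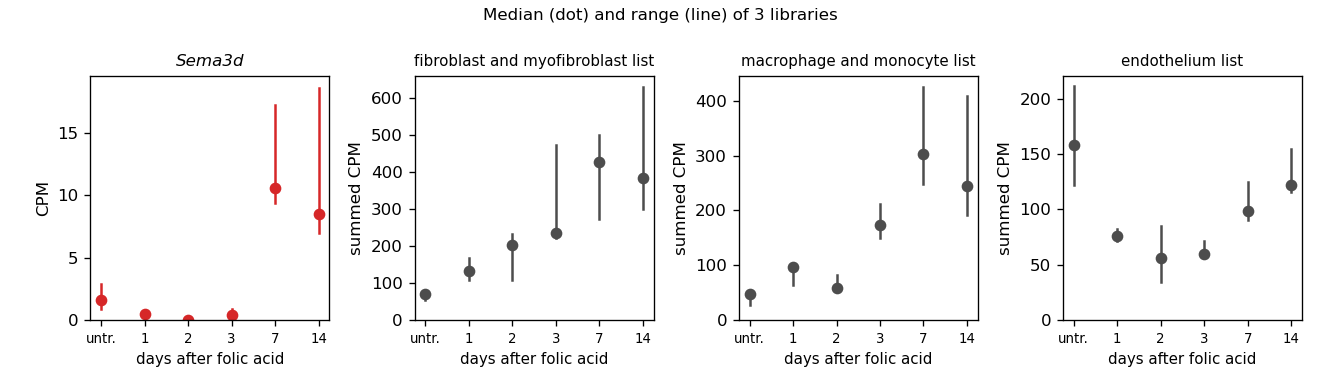
Sema3d in CPM beside the summed CPM of fibroblast, macrophage and endothelial markers in the 6 groups, drawn as the median with a bar from the lowest to the highest library. The fibroblast and macrophage sums are above the untreated range in every treated group, and the level of Sema3d is above its untreated range at days 7 and 14.

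Sema3a, the class 3 repellent that signals through neuropilin 1 and A-type plexins, was called lower on the same 2 days, but the calls rest on 1 untreated library. Its level was 1.47, 1.43 and 15.7 CPM in the untreated libraries, 0.394, 0.877 and 0.457 at day 1 and 0.0815, 0 and 1.19 at day 2. It was 0.0995, 0.72 and 0.761 CPM at day 3, 0.691, 0.998 and 0.729 at day 7, and 1.91, 0.852 and 1.14 at day 14. Untreated replicate 3 stood far above both other untreated libraries, and the groups did not overlap at days 1, 2, 3 and 7. Sema3a had a log2 fold change of -3.40 at day 1 (SE 1.06, adjusted p = 0.0464) and -3.69 at day 2 (SE 1.10, adjusted p = 0.0314). Without untreated replicate 3 it was -1.32 (adjusted p = 0.506) and -1.64 (0.367). The day 1 call was also lost without day 1 replicate 1 (-3.20, 0.15), replicate 2 (-3.82, 0.094) or replicate 3 (-3.24, 0.14). The day 2 call was lost without day 2 replicate 1 (-3.12, 0.0992) or replicate 2 (-3.31, 0.0941), and without day 2 replicate 3 the value was -6.45. At day 3 the log2 fold change of Sema3a was -3.53 (SE 1.07) and did not pass (adjusted p = 0.0505). It was called lower there with DESeq2 size factors in edgeR (-3.58, 0.0475) and with no low-count filter (-3.50, 0.0228). Leaving out untreated replicate 1 (-4.01, 0.0485) or replicate 2 (-4.02, 0.0464) also gave a call at day 3.

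The other class 3 ligands passed on no day by edgeR with TMM scaling. Sema3c, the highest member per kilobase in untreated kidney, was at 42.1, 102 and 52.5 CPM there and had log2 fold changes of 0.25, -0.21, 0.48, 0.23 and -0.16 at days 1, 2, 3, 7 and 14. Sema3e, the ligand that binds plexin D1 without a neuropilin, was at 1.30, 0.832 and 1.57 CPM in untreated kidney and at 3.63, 4.41 and 3.04 at day 1. These groups did not overlap, but the log2 fold change of 1.59 (SE 0.77) did not pass (adjusted p = 0.213). At day 3 a single library of 13.0 CPM stood above the others of 0.995 and 1.57, and DESeq2 called Sema3e there (2.03, adjusted p = 0.0499). Scaling to library totals also called it at day 3 (2.76, 0.0347). Sema3b was at 4.73, 32.8 and 9.08 CPM in untreated kidney, and between 1.82 and 16.9 CPM in the treated libraries, overlapping on all 5 days. Sema3f, a ligand that prefers neuropilin 2, lay between 1.10 and 4.13 CPM in all libraries and overlapped on all 5 days. Sema3g, known from endothelium, ranged from 1.23 to 21.3 CPM. It lay below the untreated group at days 2 and 3 and above it at day 14 without overlap, and its lowest adjusted p was 0.228.

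Among the membrane-bound ligands Sema5a, a semaphorin with thrombospondin repeats that can attract or repel, was higher at days 1 to 7. Its level was 61.1, 61.3 and 71.0 CPM in untreated kidney, 99.7, 104 and 130 at day 1, and 108, 105 and 147 at day 2. It was 131, 176 and 137 CPM at day 3, 177, 176 and 132 at day 7, and 93.9, 97.4 and 118 at day 14. Every treated library lay above every untreated one on all 5 days, and the highest means were 148 ± 24.4 CPM at day 3 and 162 ± 25.5 at day 7. Sema5a had a log2 fold change of 0.79 at day 1 (SE 0.22, adjusted p = 0.0245), 0.90 at day 2 (SE 0.22, 0.0104), 1.20 at day 3 (SE 0.22, 0.00232) and 1.33 at day 7 (SE 0.22, 2.51-fold, 0.00116). The day 3 and day 7 calls were kept with any library left out. The day 1 call was lost without untreated replicate 1 (0.75, 0.0937), untreated replicate 2 (0.75, 0.0935), untreated replicate 3 (0.86, 0.0504) or day 1 replicate 3 (0.67, 0.106), and the day 2 call without untreated replicate 1 (0.85, 0.0514) or day 2 replicate 3 (0.72, 0.0506).

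Sema6a, a membrane ligand of plexins A2 and A4, was called higher at days 2 and 3. Its level was 11.6, 12.4 and 14.3 CPM in untreated kidney, 24.4, 25.7 and 19.7 at day 1, 34.5, 21.3 and 26.5 at day 2, and 23.4, 30.3 and 23.1 at day 3. It was 27.3, 27.3 and 14.5 CPM at day 7 and 7.76, 11.2 and 12.5 at day 14. All libraries of days 1 to 7 lay above the untreated ones, and at day 14 the groups overlapped. Against untreated kidney the log2 fold change was 1.11 at day 2 (SE 0.30, adjusted p = 0.0201) and 1.00 at day 3 (SE 0.30, 0.0478). The day 2 call was lost without untreated replicate 1 (1.03, 0.0842), untreated replicate 2 (1.07, 0.0727) or day 2 replicate 1 (0.90, 0.085), and the day 3 call was lost with any 1 of the 6 libraries left out (0.87 to 1.07). At day 7 DESeq2 called it (0.84, adjusted p = 0.0477).

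Sema4g, a membrane semaphorin that binds plexin B2, was lower at days 1, 2 and 7. Its level was 58.2, 24.6 and 27.4 CPM in untreated kidney and 5.16, 5.56 and 3.84 at day 1. It was 11.9, 6.59 and 15.0 CPM at day 2, 20.7, 19.4 and 20.7 at day 3, 6.68, 14.9 and 11.9 at day 7, and 13.8, 16.3 and 13.5 at day 14. Every treated library lay below every untreated one, and the level at day 3 was above that of days 1, 2, 7 and 14 without overlap. The log2 fold change was -2.92 at day 1 (SE 0.40, 7.58-fold lower, adjusted p = 9.49e-05), -1.70 at day 2 (SE 0.38, 0.00617) and -1.72 at day 7 (SE 0.38, 0.00917). The day 1 call was kept with any library left out. The day 2 call was lost without untreated replicate 1 (-1.22, 0.0532), and the day 7 call was lost without it (-1.23, 0.0761), without day 7 replicate 1 (-1.46, 0.0604) and with scaling to library totals (-1.03, 0.103). The proximal tubule marker sum lay between 1911 and 3697 CPM at days 1 to 7 and between 2922 and 7775 at day 14, below its untreated range. At days 1 to 7 the loop and distal tubule sum (450 to 1849 CPM against 2121 to 2736 untreated) was also below. So was the podocyte sum (103 to 171 CPM against 191 to 281). The collecting duct and endothelial sums were below theirs at days 1 to 3, and the fibroblast and macrophage sums were above. The part of these cells in the fall of Sema4g was not tested.

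The remaining membrane ligands passed on no day by edgeR with TMM scaling and all libraries. Sema4a was at 29.2, 64.0 and 38.1 CPM in untreated kidney, with log2 fold changes of -0.05, 0.24, 0.02, -0.50 and -0.53 over the 5 days. Sema4d, known as CD100 and a ligand of plexin B1, was at 20.8, 19.0 and 35.4 CPM in untreated kidney. At day 14 it stood at 21.4, 27.7 and 93.2 CPM, so the log2 fold change of 0.92 (adjusted p = 0.344) came with 1 library far above the others. Sema4b was at 9.41, 10.4 and 11.3 CPM in untreated kidney and at 13.8, 41.2 and 14.6 at day 2. That was a log2 fold change of 1.15 (adjusted p = 0.0533), with day 2 replicate 2 above both other libraries, and DESeq2 called it (1.14, adjusted p = 0.0285). Sema4b also lay above the untreated group without overlap at days 1, 3 and 7 (log2 0.48, 0.61 and 1.02), and overlapped it at day 14. Scaling to library totals called Sema4b at day 2 (1.23, 0.0246), day 3 (1.20, 0.0284) and day 7 (1.68, 0.00446). Sema7a, the lipid-anchored member that binds plexin C1 and integrin beta 1, had 0.658, 1.21 and 6.21 CPM at day 7 against 1.25, 1.90 and 0.626 in untreated kidney. Sema6d ranged from 2.03 to 14.2 CPM over all libraries, and Sema4c, Sema5b, Sema6b and Sema6c had at most 2.56 CPM in any library. The lowest adjusted p of these 5 genes was 0.196 (Sema5b at day 2), and Sema4c shares 334 exon bases with D430040D24Rik on the other strand.

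Of the receptors, Plxna4, which serves class 3 semaphorins with neuropilins and Sema6a directly, was lower at days 1 and 2. Its level was 7.83, 4.42 and 9.46 CPM in untreated kidney, 2.23, 2.29 and 2.57 at day 1, and 1.51, 1.35 and 1.92 at day 2. It was 3.88, 2.27 and 3.04 CPM at day 3, 6.64, 4.42 and 9.75 at day 7, and 6.90, 5.76 and 4.85 at day 14. The groups did not overlap at days 1, 2 and 3, and by day 7 they did. The log2 fold change was -1.61 at day 1 (SE 0.40, 3.05-fold lower, adjusted p = 0.0145) and -2.16 at day 2 (SE 0.42, 4.46-fold lower, 0.00223). The day 2 call was kept with any library left out, and the day 1 call was lost without untreated replicate 3 (-1.38, 0.0686), day 1 replicate 1 (-1.57, 0.0541) or day 1 replicate 2 (-1.58, 0.0573). An antisense transcript, Plxna4os3, shares 110 exon bases with Plxna4, and it had 9 reads over all libraries.

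Plxnb2, the receptor of class 4 semaphorins that has been studied in tubule repair, was called higher at day 2 through 1 library. Its level was 52.1, 60.6 and 40.0 CPM in untreated kidney and 69.1, 171 and 79.8 at day 2. The 3 libraries of day 2 lay above the untreated ones, with day 2 replicate 2 far above both others. This gave a log2 fold change of 1.06 (SE 0.34, adjusted p = 0.0435). It was 0.54 (adjusted p = 0.301) without day 2 replicate 2. Leaving out an untreated library also ended the call (1.05, adjusted p = 0.111, without the first, 1.18, 0.0687, without the second, and 0.89, 0.171, without the third). Day 2 replicate 2 had the fewest reads in genes of all libraries (8677197) and the lowest TMM factor (0.682). On the other days the values ranged from 41.2 to 95.1 CPM and overlapped the untreated group at days 1, 3, 7 and 14. Scaling to library totals called Plxnb2 higher at day 7 (1.11, 0.0266).

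**Figure D4:**
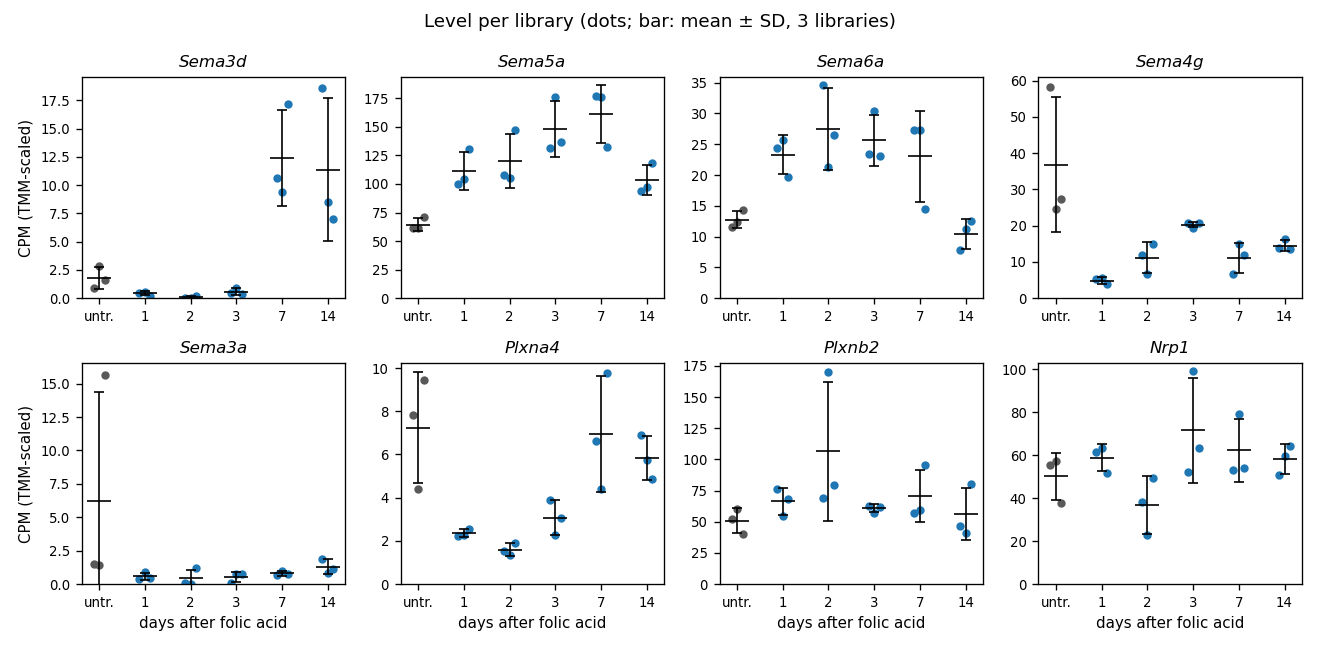
CPM of 8 members in every library of the 6 groups, with the group mean and SD as a mark and an error bar (n = 3), and each panel on its own linear axis, where a lower error bar that would pass below 0 is cut at 0. Sema3d is high at days 7 and 14. Sema5a is above untreated kidney on every day, Sema6a is above it from day 1 to day 7, and Sema4g is below it on every day. Single libraries stand out for Sema3a (untreated) and Plxnb2 (day 2).

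Nrp1, the neuropilin with the higher level, passed on no day by edgeR. It was at 55.5, 57.4 and 37.7 CPM in untreated kidney, 38.1, 22.6 and 49.4 at day 2 and 52.3, 99.0 and 63.5 at day 3, with log2 fold changes of 0.23, -0.45, 0.51, 0.31 and 0.22 over the 5 days. Nrp2, the neuropilin more often tied to Sema3f and to lymphatic vessels, was at 4.73, 5.04 and 4.51 CPM in untreated kidney, 12.9, 12.2 and 6.90 at day 7, and 9.63, 12.8 and 24.5 at day 14. All libraries of days 7 and 14 lay above the untreated ones, yet the log2 fold changes of 1.16 (SE 0.52, adjusted p = 0.195) and 1.71 (SE 0.52, adjusted p = 0.105) did not pass. DESeq2 called Nrp2 at day 14 (1.69, adjusted p = 0.0292), and scaling to library totals called it at day 7 (1.85, 0.034).

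Plxna1, a receptor for class 3 and class 6 semaphorins, was at 8.97, 9.92 and 15.5 CPM in untreated kidney, 36.4, 24.7 and 18.2 at day 1, 21.1, 24.2 and 30.1 at day 2, 20.6, 20.2 and 38.7 at day 3 and 40.0, 22.3 and 17.8 at day 7. These 4 days did not overlap the untreated group, but the log2 fold changes of 1.21, 1.14, 1.21 and 1.22 had adjusted p-values of 0.0726, 0.0807, 0.0821 and 0.0814. DESeq2 called Plxna1 at day 7 (1.21, adjusted p = 0.0465), and scaling to library totals called it at day 2 (1.39, 0.0434), day 3 (1.79, 0.0132) and day 7 (1.93, 0.00877). Plxna1 shares 970 exon bases with Gm26811 on the other strand, so reads of these genes may not be told apart. Plxnd1, the endothelial receptor of Sema3e, was at 6.74, 8.70 and 4.82 CPM in untreated kidney and at 9.37, 13.2 and 9.37 at day 7, with no overlap and a log2 fold change of 0.65 (adjusted p = 0.306), which scaling to library totals called (1.31, 0.0338). Plxnc1, the receptor of Sema7a, was at 1.20, 1.19 and 1.38 CPM in untreated kidney and at 2.65, 3.65 and 4.20 at day 14, a log2 fold change of 1.48 (adjusted p = 0.38). Plxna2 (15.1 to 46.0 CPM over all libraries), Plxnb1 (3.76 to 29.3) and Plxna3 (0.179 to 2.26) overlapped the untreated group on all 5 days. The antisense transcript Plxna4os2 had 170 reads in all and a lowest adjusted p of 0.101. Another, Plxna4os1, was not tested by edgeR and had 34 reads in untreated kidney and 2 at day 1. DESeq2, which used no such filter, called Plxna4os1 lower at day 1 (-4.86, adjusted p = 0.0247).

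Between consecutive days no member was called by edgeR. From day 1 to day 2, 0 of 30 passed, where 0.0416% of all genes were called higher and 0.0178% lower. At an unadjusted p under 0.05 there were 5 members, beside 13.4% of all genes. DESeq2 called 1, Sema4g (1.26, adjusted p = 0.0459). From day 2 to day 3, 0 of 29 passed, against 0.22% and 0.0297%, and 0 by DESeq2. At an unadjusted p under 0.05 there were 4 members, beside 15.5% of all genes. From day 7 to day 14, 0 of 29 passed, against 0.00594% and 0.0119%, with 6 at an unadjusted p under 0.05, beside 9.44% of all genes. DESeq2 called Sema6a lower there (-1.15, adjusted p = 0.0305).

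Between day 3 and day 7, the comparison that chose the family, values are given without a test. Besides Sema3d, Plxna4 (from 3.07 ± 0.804 to 6.94 ± 2.68 CPM, log2 1.18) and Plxnd1 (log2 0.45) were higher at day 7 with no overlap. Sema4g (from 20.3 ± 0.737 to 11.1 ± 4.16 CPM, log2 -0.86), Sema4a (-0.52), Sema4d (-0.49) and Plxna4os2 (-1.92) were lower with no overlap. The other members with enough reads overlapped between the days. How many of all genes lay apart between these days was not counted, so nothing particular to the family is read from this.

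Genes that work with the family were read from 3 lists: co-receptors (15 of 16 tested), intracellular effectors (24 of 27) and other neuropilin ligands (6 of 7). The median log2 fold change of the co-receptors was 0.29, 0.43, 0.47, 0.56 and 0.26 over the 5 days. Over all genes it was 0.05, 0.03, 0.07, 0.06 and 0.04. At day 1 5.09% of all genes were called higher and 5.56% lower, and at day 2 7.19% and 5.98%. Of the 15 co-receptors 3 rose and 1 fell at day 1 and at day 2. Those that rose were Itgb1, the integrin chain that binds Sema7a, Nrcam, an adhesion molecule that partners neuropilin 2, and Timd2, a receptor of Sema4a. The one that fell was Kdr, the endothelial growth factor receptor that pairs with neuropilin 1. Timd2 went from 25.4 ± 6.48 to 192 ± 26.8 CPM at day 1 (log2 2.92, SE 0.40, adjusted p = 0.000106), and Itgb1 from 45.2 ± 8.69 to 121 ± 20.6 (log2 1.42, SE 0.22, adjusted p = 0.000347). Kdr went from 21.1 ± 7.74 CPM to 4.86 ± 1.10 at day 1 and 2.11 ± 0.966 at day 2 (log2 -3.26, SE 0.44, adjusted p = 8.4e-05), and was also lower at day 3 (-2.71) and day 7 (-1.71). The day 7 call of Kdr was lost without untreated replicate 2 (-1.41, 0.0849), without day 7 replicate 1 (-1.46, 0.084) and with scaling to library totals (-1.06, 0.125), and the day 2 call of Timd2 (1.57) without untreated replicate 2 (1.37, 0.0632) or day 2 replicate 2 (1.21, 0.0607). Kdr and Flt1 are themselves in the list of 15 endothelial markers. Of that list 4, 8, 6 and 1 were called lower at days 1, 2, 3 and 7, and the 1 at day 7 was Kdr itself. The part of the other endothelial markers in the fall of Kdr was not tested.

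Tyrobp, the myeloid adaptor that links Trem2 to plexin A1, was at 0.510 ± 0.457 CPM in untreated kidney and at 8.36 ± 4.36 at day 7. Its log2 fold change there was 4.04 (SE 0.67, 16.5-fold, adjusted p = 0.00112), a call kept with any library left out. It was also called at day 3 (2.34) and day 14 (3.39). The day 3 call was lost without untreated replicate 2 (2.03, 0.13), untreated replicate 3 (1.96, 0.118), day 3 replicate 2 (2.31, 0.0735) or day 3 replicate 3 (1.92, 0.102), and the day 14 call without untreated replicate 2 (3.09, 0.0772) or untreated replicate 3 (3.02, 0.0546). Macrophage markers rose over the same days (above), and their part in the rise of Tyrobp was not tested. The other calls of this list depended on single libraries. Flt1, a vascular endothelial growth factor receptor, was lower at day 3 (-2.17, and -2.02 with adjusted p = 0.0516 without day 3 replicate 2). Trem2 was higher at day 7 (3.68, lost with any 1 of the 6 libraries left out). Ptk7 was higher at day 14 (4.65, and 1.13 with adjusted p = 0.699 without day 14 replicate 3).

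Among the effectors Rras, a small GTPase on which plexins act, rose on all 5 days. It went from 2.16 ± 0.727 CPM to 20.1 ± 0.743 at day 1 (log2 3.23, SE 0.42, 9.39-fold, adjusted p = 6.1e-05), 17.6 ± 5.10 at day 3 and 9.78 ± 4.22 at day 14 (log2 2.19, SE 0.40, adjusted p = 0.00771). The day 14 call was lost without untreated replicate 2 (1.94, 0.0585). Dpysl3, a cytoskeletal protein of the collapsin response mediator family, was called higher at days 1, 2, 3 and 7, with a mean of 4.81 ± 4.88 CPM in untreated kidney and 34.0 ± 12.3 at day 1. At day 2 its log2 fold change was 4.85, with 363 CPM in its highest library. It was 2.41 (adjusted p = 0.0149) without day 2 replicate 2 and 6.07 (0.00189) without untreated replicate 1. Without untreated replicate 2 the log2 value was 2.46 at day 1 (adjusted p = 0.149), 2.94 at day 3 (0.104) and 2.71 at day 7 (0.138), and without untreated replicate 3 it was 2.44 (0.145), 2.93 (0.102) and 2.69 (0.124). The day 1 call was also lost without day 1 replicate 1 (2.49, 0.113), replicate 2 (3.01, 0.0569) or replicate 3 (2.94, 0.0586). The day 3 call was also lost without day 3 replicate 2 (3.09, 0.0721), and the day 7 call without day 7 replicate 1 (2.55, 0.129) or replicate 2 (3.22, 0.0539). Among all genes 5.09, 7.19, 4.18, 3.87 and 1.24% were called higher over the 5 days, and 5.98% lower at day 2. Of the 24 effectors 4 rose at day 1 (with Cfl1 and Mical2), 4 at day 2 (with Gsk3b and Gipc1) and 3 at day 3 (with Fes). At day 7 2 rose and at day 14 1, and Farp2 fell at day 2. Of these calls, that of Cfl1 was kept with any library left out, and those of Mical2, Gsk3b, Gipc1, Fes and Farp2 were each lost without 1 or more single libraries. Without day 2 replicate 2, Gsk3b was at 0.35 (adjusted p = 0.383) against 1.35 and Gipc1 at 1.22 (0.167) against 2.00. The median log2 fold change of the effectors was 0.33, 0.52, 0.45, 0.21 and 0.17 over the 5 days, beside 0.05, 0.03, 0.07, 0.06 and 0.04 over all genes.

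Of the other neuropilin ligands, Vegfa, the growth factor that binds neuropilin 1 with Kdr, fell at days 1, 2, 3 and 7. Its level was 83.8 ± 8.35 CPM in untreated kidney, and 35.2 ± 2.51, 27.2 ± 2.22, 43.2 ± 4.79, 34.6 ± 1.72 and 55.2 ± 3.39 CPM over the 5 days in order. The groups did not overlap on any of the 5 days. On the first 4 of these days the log2 fold changes were -1.25, -1.62 (SE 0.20, adjusted p = 4.4e-05), -0.96 and -1.28, and the calls of days 3 and 7 were lost with scaling to library totals (-0.39 at day 3 and -0.60 at day 7). Vegfd, a lymphatic growth factor, fell at day 1 from 2.28 ± 0.148 to 0.269 ± 0.300 CPM (log2 -3.18, SE 0.73, adjusted p = 0.00809). The 4 other ligands tested passed on no day by edgeR. Among all genes 5.56, 5.98, 3.43 and 3.85% were called lower at days 1, 2, 3 and 7.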

How the data were processed

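RNA from whole kidney was sequenced in 18 libraries, 3 in each of 6 groups taken from the sample labels. Per the labels' protocols, TRIzol-extracted total RNA was amplified by isothermal priming (NuGEN SPIA), and per the submitters' processing notes cutadapt, TopHat2 2.07, HTSeq and DESeq were used with build NCBIM37. The authors deposited raw read counts per gene, in which whole reads are listed for 37991 identifiers beside 5 tallies of unassigned reads, and these counts were used for every value. Reads mapped to several places (18.4 to 28.5%) were tallied apart. The strand setting of the counting is not given in the sources used here. Symbols and exon lengths came from GENCODE M21 by identifier (32919 matched, 5072 did not), which is of a later build, so exon lengths are approximate. Promoter sequences were found for 26 members.

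The tests used edgeR 4.0.16 (TMM scaling, filterByExpr, two-sided quasi-likelihood tests) in 1 fit of all 18 libraries with group as the only term, which left 16824 genes, and the fit was tested on simulated data. SE is the log2 fold change divided by the square root of F. Reads in genes numbered 8677197 to 54613262 per library, and 0 reads allow up to 3 by counting error. Within each group no library was a copy of another, and libraries of different groups were not compared in this way. Day 3 against day 7, and Sema3d in any comparison with these days, was not tested. Members, lists and tests were chosen with earlier results of these data known. The genes named by rule are all called members and up to 4 called genes per day and direction of each of the 3 pathway lists, and values of uncalled members are examples chosen after their values were seen. The 10 marker lists cover proximal tubule, loop and distal tubule, collecting duct, podocyte, endothelium, fibroblast, macrophage, T and natural killer cell, Schwann cell and lymphatic endothelium. Alternatives were DESeq2 1.42.0, DESeq2 size factors in edgeR, library totals, no filter, a replicate block, only the 2 groups compared, and each library left out. Software was R 4.3.3, Python 3.11.15, pandas 2.3.3 and, for figures, matplotlib 3.10.9.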

Additional observations from a re-analysis of the deposited data

Results flagged for a closer look

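Sema3d stood on opposite sides of the untreated level early and late. Its log2 fold change was 2.65 at day 14, with all 3 libraries above all untreated libraries, and -2.11 at day 1, with all 3 below them. The same holds for 2.65 at day 14 against -4.04 at day 2. The difference between these days was not tested, and the 3 untreated libraries are shared by the comparisons.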

How the results depend on the processing

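Of 17 member calls 5 were kept in every fit (Sema4g at day 1, Sema3d and Plxna4 at day 2, Sema5a at days 3 and 7), and 12 were lost with at least 1 library left out. With each library left out, 1 to 4 members were called at day 1, 3 to 7 at day 2, 1 to 3 at day 3, 1 to 3 at day 7 and 0 to 1 at day 14, against 5, 7, 2, 2 and 1 with all libraries. At day 1 it was 3 if untreated replicate 2 was left out, 1 if untreated replicate 3 was, and 2 for each day 1 library in turn, and the day 2 count was 3 without untreated replicate 1. A count of 1 was left at day 3 without untreated replicate 3 or any day 3 library, and at day 7 without untreated replicate 1 or day 7 replicate 1. None was left at day 14 without any 1 untreated library or day 14 replicate 1. At day 1, library totals called 3, the replicate block 3 and a fit of only the 2 groups 3. At day 2 a fit of only the 2 groups called 2. At day 3 library totals called 5, the replicate block 1 and DESeq2 4. At day 7 library totals called 7 and DESeq2 4. At day 14 the replicate block called 0, a fit of only the 2 groups 0 and DESeq2 3. DESeq2 called 1 between days 1 and 2 and 1 between days 7 and 14. The causes were not tested. Library totals moved the median log2 fold change of all genes by 0.14, 0.25, 0.58, 0.67 and 0.32 at days 1, 2, 3, 7 and 14. Under them the higher and lower members were 1 and 2, 5 and 3, 5 and 0, 7 and 0, and 1 and 0. The TMM factors were 0.720 to 0.890 in untreated libraries, 1.12 to 1.29 at day 3 and 1.19 to 1.36 at day 7. The log2 difference of Sema3d between days 7 and 14, -0.13 with all libraries, was -0.68 without day 14 replicate 1, 0.19 without day 7 replicate 3, 0.04 without day 14 replicate 2 and 0.13 without day 14 replicate 3. Between groups, correlations of same-numbered libraries ran from -0.054 to 0.042 and those of other-numbered libraries from -0.056 to 0.050. Of the 18 libraries 6 correlated best with their own number. No pairing by replicate number was seen, but a shared batch that acts on few genes would not show in these correlations. The replicate block lost 5 member calls. Sema3d at day 2 rests on 8 reads in all.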
